A study of Mus musculus with 13 samples.

Results

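Transcripts of 9 complement regulators and receptors were followed in isolated glomeruli of mice with experimental membranous nephropathy (MN), an antibody-mediated disease of the podocyte. The genes were chosen by name and not by a threshold on their values: the membrane-bound regulators *Cr1l*, *Cd59a*, *Cd55* and *Cd46*, the soluble regulators *Serping1*, *Clu* and *Vtn*, and the anaphylatoxin receptors *C3ar1* and *C5ar1*. All 9 were present among the 35967 gene symbols of the expression table, and 6 passed the filter on low values, as did 14322 genes in all. Wild-type Balb/c mice had received 2 mg of rabbit IgG into the peritoneum, either preimmune IgG (control, n = 5) or IgG against the podocyte protein THSD7A, with glomeruli taken at day 1 (n = 4) or day 5 (n = 4). All groups therefore carried foreign rabbit IgG, and control mice of both days formed 1 group with the day of each mouse not given. Each library came from 1 mouse, and values are TPM, the share of transcripts belonging to a gene, which allows for transcript length and so can be compared between genes. Means are given ± SD over the 5 control mice or the 4 mice of a day. TPM keep no read depth, which was unknown, and counting error is therefore not given. The methods state that mice of the MN model were all male. They give an age for the knockout and littermate cohorts of this model, and not separately for the sequenced Balb/c mice.

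Complement is a cascade of plasma proteins that is started by antibody, by sugars on microbes or by spontaneous activation, and that converges on the cleavage of C3 and the assembly of the membrane attack complex. Host cells are shielded by regulators that break up or inactivate the convertases, the enzymes that cleave C3 and C5, or that keep the attack complex from forming. The small fragments released on the way, C3a and C5a, act on leukocytes through their own receptors. In MN, immune complexes form under podocytes and complement is deposited there, which makes the regulators that glomerular cells express of interest.

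Isolated glomeruli carried high levels of podocyte markers. The summed TPM of 6 of them, among them *Nphs1*, *Podxl* and *Synpo*, lay between 5100 and 6450 in control mice, between 5100 and 6050 at day 1 and between 5270 and 5600 at day 5, and 0 of the 6 were called by limma in any contrast. *Synpo*, an actin-binding protein of podocyte foot processes, missed the fold threshold but passed the adjusted p at day 5, with 1450 ± 91.6 TPM in control mice and 1030 ± 106 TPM at day 5 and no overlap between the groups (log2 fold change -0.46, adjusted p = 0.00197, limma). Tubular RNA was also present and was higher at day 1 in its means, with a summed TPM of 8 proximal tubule markers of 2270 to 8230 in control mice, 3960 to 7200 at day 1 and 2930 to 3550 at day 5. The log2 fold changes of all 8 were positive at day 1 (median 0.71) and negative between the days (median -0.69), and 0 were called by limma. Of 7 markers of the loop, distal tubule and collecting duct, 6 were tested, with positive values in 6 of 6 at day 1 (median 0.58, 0 called by limma), and *Aqp2* and *Calb1* were called as lower between the days. Control replicate 2 had the lowest value of the control mice for 6 of 6 podocyte markers.

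In control glomeruli the regulators spanned a wide range of levels, and their order was led by the membrane-bound *Cr1l*. *Cr1l* encodes Crry, the rodent inhibitor of C3 convertases, and its mean of 192 ± 16.3 TPM exceeded 94.2% of all tested genes. *Cd59a*, which blocks the attack complex, followed at 116 ± 20.7 TPM, then *Serping1*, the inhibitor of the C1 proteases, at 95.2 ± 8.84 TPM, and *Cd55*, which speeds the decay of convertases, at 76.7 ± 13.4 TPM. Neither *Cd59a* and *Serping1* nor *Serping1* and *Cd55* were separated by their ranges over control mice, whereas *Cr1l* lay above *Cd59a* in every pair of libraries. *Clu*, the chaperone clusterin that binds the forming attack complex, stood clearly lower at 15.2 ± 1.89 TPM, and *Cd46*, a cofactor for the cleavage of C3b, at 4.66 ± 0.709 TPM. The receptors and *Vtn*, which encodes vitronectin, lay under 1 TPM in all 13 libraries and did not pass the filter.

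**Figure D1:**
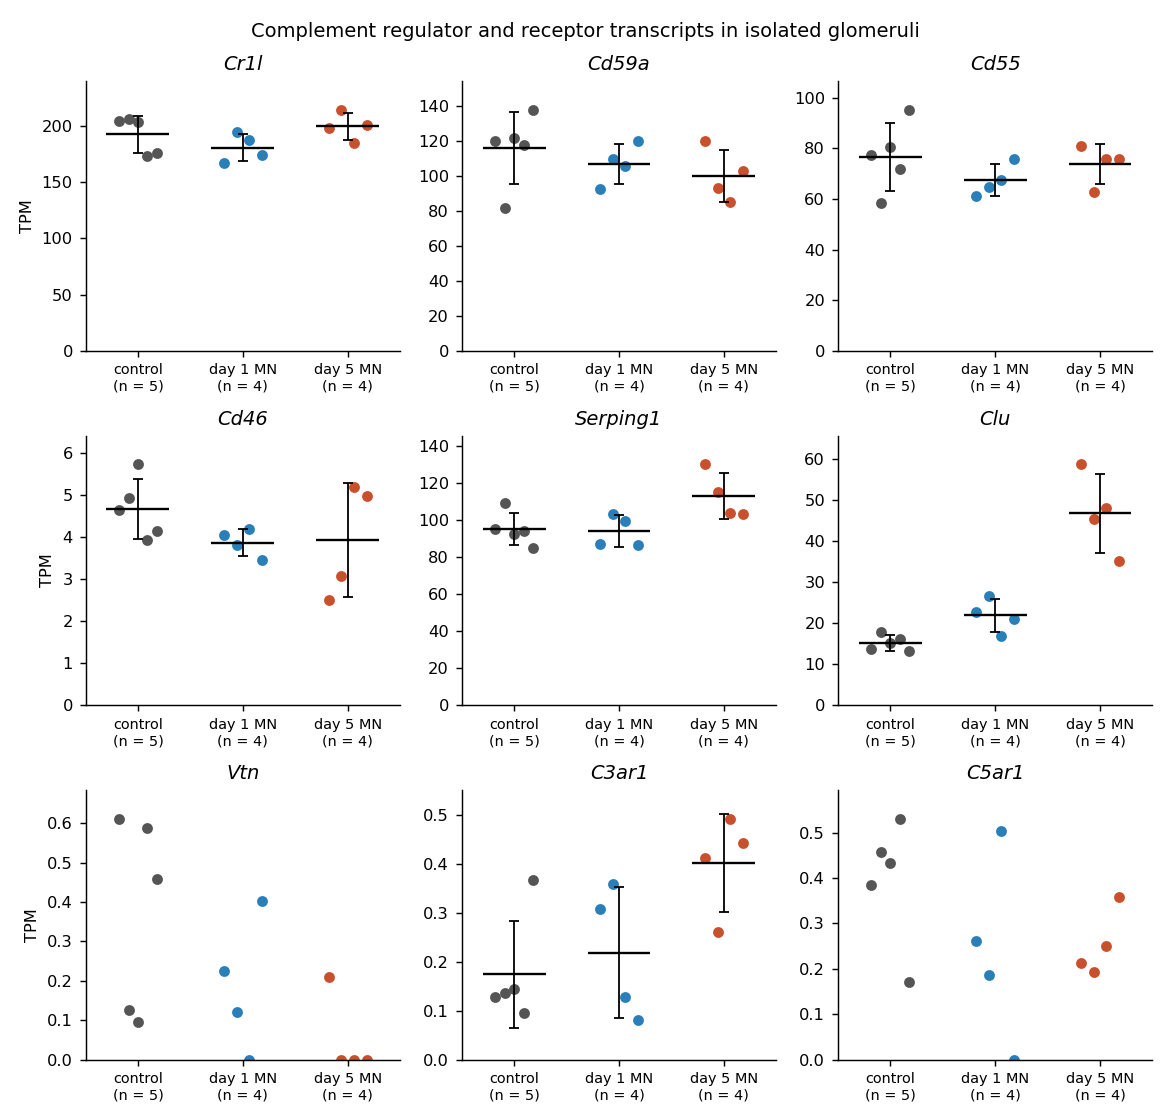
TPM (vertical axis from 0, its own for each panel) of the 9 genes by group, with a point for each library (horizontal bars, mean, and error bars, SD, left out for *Vtn* and *C5ar1*, which are listed at 0 in some libraries). *Clu* rises from 13.2 to 17.8 TPM in control mice to 35.2 to 58.6 TPM at day 5, while the groups of the other genes overlap at day 5.

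*Clu* was the one gene of this group that was called as changed. Its TPM was 13.6, 17.8, 15.2, 16.1 and 13.2 in the 5 control mice, 22.8, 26.7, 16.8 and 21.1 at day 1, and 58.6, 45.2, 48.0 and 35.2 at day 5. All 4 day 5 libraries lay above all control and all day 1 libraries, and at day 1 the lowest library lay within the control range. The mean at day 5 was 3.08 times that of control mice (46.7 ± 9.62 against 15.2 ± 1.89 TPM). On the log2 scale used for the tests, log2(scaled TPM + 0.5), *Clu* stood 1.61 higher at day 5, with a 95% interval of 1.27 to 1.95 (adjusted p = 6.1e-05, from limma, adjusted by Benjamini-Hochberg over all tested genes). *Clu* thus ranked 102 of 14322 tested genes by fold change at day 5.

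At day 1 *Clu* had a log2 fold change of 0.54, with a 95% interval of 0.20 to 0.88, and it did not pass the threshold (adjusted p = 0.241, limma). A direct test of day 5 against day 1 passed, with *Clu* 1.07 higher at day 5 (95% interval 0.71 to 1.43, adjusted p = 0.00278, limma). A gene was called where its adjusted p was under 0.05 and its log2 fold change exceeded 0.5 in either direction. At these thresholds 3.21% of all tested genes were called at day 5 (2.42% as higher and 0.789% as lower), 0.0908% at day 1 (0.0559% and 0.0349%) and 1.81% between the days (1.41% and 0.398%). Of the 6 tested regulators, 1 was called at day 5 and between the days, *Clu* in each case, and 0 at day 1, where limma gave 1799 of 14322 genes an unadjusted p under 0.05, among them *Clu*. Groups did not overlap for 0 of the 6 at day 1, for *Clu* alone at day 5 and for *Clu* alone between the days, against 4.22%, 10.8% and 11% of all tested genes. The median log2 fold change at day 5 was 0.04 over the 6 regulators and -0.0032 over all tested genes.

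The day 5 increase of *Clu* did not rest on 1 mouse. Leaving out each library in turn gave log2 fold changes of 1.48 to 1.74, and all 13 fits passed the threshold (adjusted p = 4.7e-05 to 4.5e-04, limma). With a score of proximal tubule markers as a covariate it was 1.61 (adjusted p = 1.2e-04, limma). *Cldn1*, a tight junction gene of the parietal epithelium that lines Bowman's capsule, rose at the same time, from 5.38 ± 0.677 TPM in control mice to 11.9 ± 3.1 TPM at day 5 (log2 fold change 1.08, adjusted p = 0.0036, limma). It was the one called gene among the 4 parietal markers. Their summed TPM, most of it from *Akap12*, lay between 42.7 and 49.8 in control mice. It lay between 51.0 and 55.6 at day 1 and between 58.5 and 63.2 at day 5. *Pax8* (log2 fold change 0.22, adjusted p = 0.624, limma) and *Pax2* (0.09, adjusted p = 0.883, limma) were not called at day 5. Between the days the values of *Pax8* and *Pax2* were negative (-0.25 and -0.49). The part of *Cldn1* in the *Clu* result was not tested. In RNA of whole glomeruli, a change in the number of cells of a type and a change in the RNA per cell cannot be told apart.

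**Figure D2:**
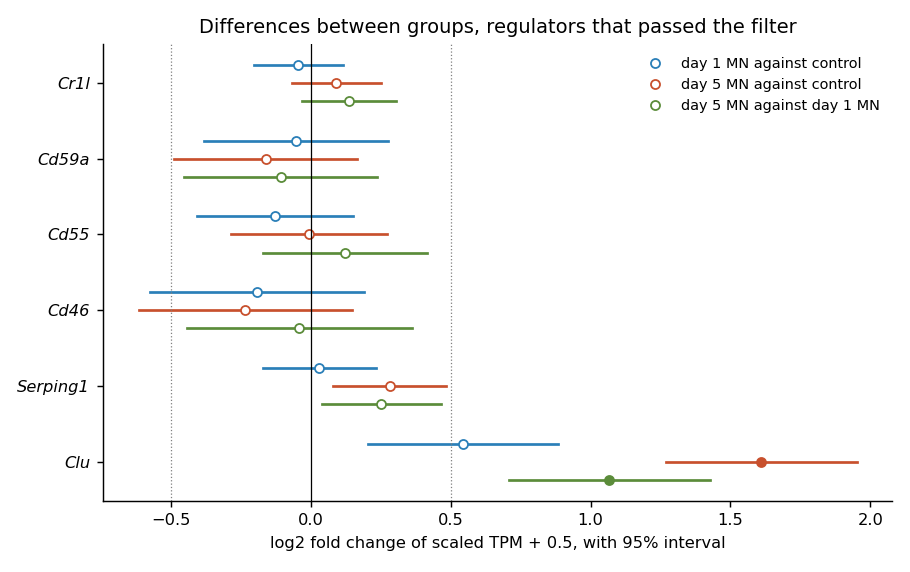
Log2 fold changes of scaled TPM + 0.5 on the horizontal axis (points, with 95% intervals as lines) of the 6 regulators that passed the filter, for day 1 and day 5 MN against control mice and for day 5 against day 1. Filled points mark called genes, and dotted lines mark 0.5 in either direction. *Clu* is called at day 5 (1.61) and between the days (1.07), and the intervals of *Cr1l*, *Cd59a* and *Cd55* reach across 0 in all 3 contrasts.

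The membrane-bound regulators of the glomerulus showed no called change in either direction. *Cr1l* measured 204, 206, 203, 173 and 176 TPM in control mice, 167, 194, 187 and 174 TPM at day 1 and 198, 214, 185 and 201 TPM at day 5. The 3 groups overlapped, and the interval of the *Cr1l* difference at day 5, -0.07 to 0.25 on the log2 scale, lay inside the fold change threshold on both sides (estimate 0.09, adjusted p = 0.563, limma), and the estimate lay between 0.05 and 0.15 when 1 mouse was omitted. At day 1 the estimate for *Cr1l* was -0.05 (95% interval -0.20 to 0.11, adjusted p = 0.847, limma).

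*Cd55* and *Cd59a* encode proteins anchored to the membrane by a lipid, and their lowest control value came from the same mouse. *Cd55* measured 77.4, 58.3, 80.7, 71.9 and 95.2 TPM in control mice, 61.0, 64.9, 67.5 and 75.9 TPM at day 1 and 81.0, 62.8, 75.7 and 75.9 TPM at day 5. The day 5 difference of *Cd55* was -0.01 on the log2 scale (95% interval -0.29 to 0.27, adjusted p = 0.988, limma). *Cd59a* measured 120, 81.8, 122, 118 and 138 TPM in control mice, 92.6, 110, 106 and 120 TPM at day 1 and 120, 93.2, 85.4 and 103 TPM at day 5. For both genes the MN libraries lay inside the range of control libraries, which was set at its low end by control replicate 2, the control library with the lowest podocyte markers. The log2 fold change of *Cd59a* at day 5 was -0.16 (95% interval -0.49 to 0.17, adjusted p = 0.625, limma), and it lay between -0.29 (without control replicate 2) and -0.07 (without day 5 replicate 3) when 1 mouse was omitted, with no call (adjusted p = 0.197 to 0.874, limma).

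Mice carry a second copy of each of these genes next to the first, and reads from stretches they share can be assigned to either. *Cd59b* lies 4.59 kb from *Cd59a* on chromosome 2, and 8.93% of the 31-base words in *Cd59a* transcripts also occur in *Cd59b*. These shared words are 17.6% of those in *Cd59b*. *Cd59b* measured 42.4 ± 7.65 TPM in control mice and 57.7 ± 12.5 TPM at day 5, a log2 fold change of 0.47 that did not pass (adjusted p = 0.086, limma). The value rested in part on day 5 replicate 1, at 75.8 TPM against 47.8 to 55.5 TPM in the other day 5 mice, and was 0.31 without it (adjusted p = 0.215, limma). Without control replicate 5 *Cd59b* was called, at 0.58 (adjusted p = 0.0236, limma). The sum of *Cd59a* and *Cd59b* was 158 ± 26.5 TPM in control mice and 158 ± 26.0 TPM at day 5. *Cd55b*, 15.7 kb from *Cd55* on chromosome 1, shares 11.8% of the 31-base words of *Cd55*, which are 30.9% of those in *Cd55b*. *Cd55b* stayed low, with 1.87 ± 0.948 TPM in control mice, 0.779 ± 0.551 TPM at day 1 and 0.919 ± 0.447 TPM at day 5. Its day 5 log2 fold change of -0.69 did not pass (95% interval -1.43 to 0.05, adjusted p = 0.288, limma).

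*Cr1l* and *Cd46* are direct neighbours on the minus strand of chromosome 1, with 3.04 kb between them, yet their levels stood far apart. In GRCm39, *Cr1l* spans chromosome 1 from 194777603 to 194813894 and *Cd46* from 194719134 to 194774561. *Cd46* measured 4.63, 4.92, 5.72, 3.93 and 4.13 TPM in control mice, 4.04, 3.80, 4.18 and 3.44 TPM at day 1 and 2.49, 3.06, 5.19 and 4.96 TPM at day 5, where 2 libraries lay below and 2 within the control range. The day 5 difference of *Cd46* was -0.24 on the log2 scale (95% interval -0.62 to 0.15, adjusted p = 0.515, limma). Omitting 1 mouse moved it between -0.36 (without day 5 replicate 3) and -0.08 (without day 5 replicate 1), with no call. Transcripts of the pair share 0 of their 31-base words, so their reads can be told apart. In mice *Cd46* is known mainly from the testis, and Crry carries its role on other cells. The start regions of both genes are shown because they are the sequence on which these unequal neighbours can be compared, from 250 bases before to 50 bases after the start, as RefSeq gives them on the minus strand of GRCm38.p6, with CG steps in capitals.
Cr1l, chr1:195131521-195131820: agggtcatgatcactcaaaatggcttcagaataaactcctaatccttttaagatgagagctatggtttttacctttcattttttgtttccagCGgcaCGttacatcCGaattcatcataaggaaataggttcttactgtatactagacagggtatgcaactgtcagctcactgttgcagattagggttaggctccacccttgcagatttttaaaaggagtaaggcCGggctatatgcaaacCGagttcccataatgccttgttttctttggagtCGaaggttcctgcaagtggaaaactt
Cd46, chr1:195092199-195092498: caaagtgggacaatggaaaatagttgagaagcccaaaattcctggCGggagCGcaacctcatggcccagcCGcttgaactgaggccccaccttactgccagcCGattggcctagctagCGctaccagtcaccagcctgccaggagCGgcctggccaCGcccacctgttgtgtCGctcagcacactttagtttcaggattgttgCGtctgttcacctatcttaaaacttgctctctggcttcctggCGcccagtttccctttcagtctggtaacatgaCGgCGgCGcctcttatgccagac
The *Cr1l* window held 6 CG steps and 41.3% G or C, and the *Cd46* window 13 and 56.3%, against a median of 7 steps over 32851 such windows. More CG steps than in 62.1% of windows thus went with the lower level of the pair. Neither window held TATAAA or GGGCGG on either strand, which 13.6% and 35.7% of all windows hold. RefSeq windows were found for 7 of the 9 genes, all but *Clu* and *Serping1*.

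*Serping1*, which encodes the C1 inhibitor and also restrains kallikrein, was not called at either day. Its TPM was 95.4, 109, 92.2, 94.3 and 85.0 in control mice, 86.8, 103, 99.6 and 86.7 at day 1 and 130, 115, 104 and 103 at day 5. A pair of day 5 libraries lay above all control libraries and the other pair within their range. The log2 fold change was 0.28 at day 5 (95% interval 0.08 to 0.48, adjusted p = 0.104, limma) and 0.03 at day 1 (95% interval -0.17 to 0.23, adjusted p = 0.938, limma). Without day 5 replicate 1, its highest library, the day 5 value of *Serping1* was 0.19 (adjusted p = 0.271, limma).

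*Vtn*, whose product vitronectin blocks insertion of the attack complex and circulates from the liver, was close to absent. It measured 0.611, 0.125, 0.0963, 0.588 and 0.458 TPM in control mice and 0.224, 0.12 and 0.402 TPM in 3 mice at day 1. *Vtn* was listed at 0 in the remaining day 1 library and in 3 of the 4 day 5 libraries, the other one holding 0.211 TPM. Without the filter on low TPM the fitted day 5 difference of *Vtn* was -0.62 on the log2 scale (adjusted p = 0.225, limma).

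The receptors for C3a and C5a were detected at very low levels. *C3ar1* measured 0.128, 0.137, 0.145, 0.0962 and 0.368 TPM in control mice, 0.308, 0.358, 0.128 and 0.0818 TPM at day 1 and 0.412, 0.261, 0.492 and 0.442 TPM at day 5. Day 5 replicates 1, 3 and 4 lay above all control libraries and day 5 replicate 2 below the highest of them. Tested without the filter, the *C3ar1* difference at day 5 was 0.43 on the log2 scale (95% interval 0.11 to 0.76, adjusted p = 0.176, limma). *C5ar1* measured 0.384, 0.458, 0.432, 0.530 and 0.170 TPM in control mice and 0.213, 0.192, 0.251 and 0.357 TPM at day 5. At day 1 it measured 0.261, 0.187 and 0.504 TPM and was listed at 0 in the fourth mouse. The groups overlapped, and without the filter the day 5 difference of *C5ar1* was -0.22 (95% interval -0.61 to 0.17, adjusted p = 0.657, limma).

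Beside these receptors, 8 macrophage markers were read together. Their summed TPM lay between 76.5 and 118 in control mice, 96.7 and 122 at day 1 and 99.1 and 138 at day 5. Most of it came from *Mrc1*, at 72.2 ± 14.4 TPM in control mice and 73.3 ± 10.3 TPM at day 5, so the sum mainly follows that gene. Of the 6 tested markers 0 were called. All 6 had positive log2 fold changes at day 5 (median 0.098), against 3 positive and 3 negative at day 1. The pan-macrophage gene *Adgre1*, which did not pass the filter, averaged 0.125 ± 0.0804 TPM in control mice and 0.248 ± 0.0473 TPM at day 1. It measured 0.236, 0.604, 0.211 and 1.60 TPM in the 4 day 5 mice, where replicate 4 stood far above the others. All 4 lay above the highest control library, the lowest of them only narrowly (0.211 against 0.21 TPM). Of tested genes, 10.8% showed no overlap between these groups. *Ptprc*, the pan-leukocyte gene, measured 2.40 ± 0.981 TPM in control mice and 4.03 ± 0.973 TPM at day 5, with overlapping groups (log2 fold change 0.71, adjusted p = 0.131, limma). For 6 neutrophil markers the summed TPM lay between 8.61 and 21.4 in control mice, 13.1 and 31.6 at day 1 and 6.16 and 26.6 at day 5, 0 of 3 tested were called, and *Ly6g* was listed at 0 in 4 of 5 control, 4 of 4 day 1 and 3 of 4 day 5 libraries. The part of leukocyte numbers in the receptor values was not tested.

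By role, the summed TPM of the 4 membrane-bound regulators was 390 ± 29.3 in control mice, 359 ± 22.9 at day 1 and 378 ± 21.0 at day 5. That of the 3 soluble regulators was 111 ± 10.4, 116 ± 10.1 and 160 ± 21.5, and every day 5 library (138 to 189) lay above every control library (98.7 to 127). This sum includes *Clu*, which went from 15.2 ± 1.89 TPM in control mice to 46.7 ± 9.62 TPM at day 5. It also includes *Serping1*, which was not called but had a higher mean at day 5, at 113 ± 12.6 TPM against 95.2 ± 8.84 TPM in control mice. *Vtn* was close to absent. Of single tested genes, 10.8% also showed no overlap between these groups. *Clu* made up 2.58% to 3.73% of the summed TPM of all 9 genes in control mice, 3.48% to 5.31% at day 1 and 6.72% to 9.92% at day 5. The order of the 6 tested regulators was the same at day 1 as in control mice. At day 5 *Serping1* stood above *Cd59a*, with overlapping ranges, and *Clu* remained in the fifth place, below *Cd55* in 4 of 4 libraries.

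The rest of the pathway was read from lists of 20 other regulators and receptors and 28 components. Of the former, 11 passed the filter and 0 were called by limma at day 1, day 5 or between the days, with a median log2 fold change of 0.19 at day 5. *Cd93*, a lectin-like receptor of endothelium that was first described with C1q, had 27 ± 2.83 TPM in control mice and 33.8 ± 3.73 TPM at day 5. Its adjusted p passed but its log2 fold change of 0.35 did not reach the threshold (adjusted p = 0.0376, limma), and the adjusted p stayed under 0.05 in 6 of 13 fits with 1 mouse omitted. *Thbd*, which encodes thrombomodulin, an endothelial cofactor in the control of clotting and complement, measured 199 ± 20.2 TPM in control mice and 252 ± 38.1 TPM at day 5 (log2 fold change 0.37, 95% interval 0.08 to 0.66, adjusted p = 0.132, limma). All 6 endothelial markers had positive log2 fold changes at day 5, with a median of 0.23, and 0 of them were called by limma. *Emcn*, an endothelial sialomucin, passed the adjusted p below the fold threshold, with 1310 ± 105 TPM in control mice and 1560 ± 44.1 TPM at day 5 and no overlap (log2 fold change 0.29, adjusted p = 0.0127, limma). *Serpine2* of the 6 mesangial markers (0.42, adjusted p = 0.0113) and *Akap12* of the parietal markers (0.29, adjusted p = 0.0404) did likewise. The other mesangial markers did not, with log2 fold changes at day 5 from -0.17 (*Pdgfrb*) to 0.13 (*Itga8*). The part of these marker values in those of *Cd93* and *Thbd* was not tested.

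**Figure D3:**
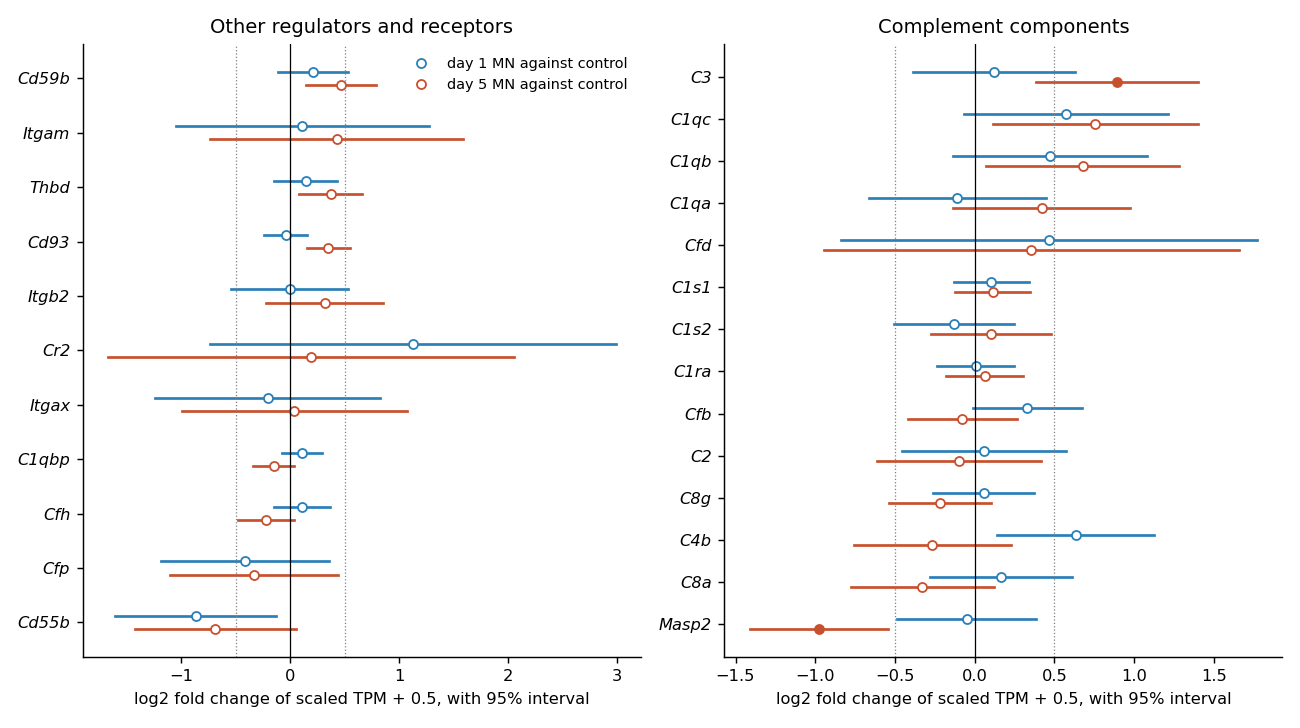
Log2 fold changes of scaled TPM + 0.5 on the horizontal axis (points, with 95% intervals as lines) against control mice at day 1 and day 5 for the 11 other regulators and receptors (left) and 14 components (right) that passed the filter. Filled points mark called genes, and dotted lines mark 0.5 in either direction. *C3* (0.89) and *Masp2* (-0.98) are the called genes, both at day 5.

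Of the components, 27 were in the table, 14 passed the filter, and at day 5 1 was called as higher and 1 as lower, with a median log2 fold change of 0.08. *C3*, the protein on which the pathways converge, measured 1.47, 0.871, 2.14, 1.00 and 1.86 TPM in control mice, 1.21 to 1.87 TPM at day 1 and 3.73, 2.08, 2.82 and 3.55 TPM at day 5. The lowest day 5 library lay just within the control range, and the log2 fold change of 0.89 was at the edge of the threshold (95% interval 0.38 to 1.40, adjusted p = 0.041, limma). *C3* stayed past the threshold in 4 of the 13 fits with 1 mouse omitted and in 6 of 9 under other settings. Omitting any 1 of 9 mice ended its call, namely control replicates 1, 2 and 4, day 1 replicates 1, 2 and 4 and day 5 replicates 1, 3 and 4, and the adjusted p reached 0.128 without day 5 replicate 1 (limma). *Masp2*, a protease of the lectin pathway, fell from 2.57 ± 0.588 TPM in control mice to 1.03 ± 0.282 TPM at day 5, with no overlap between the groups (log2 fold change -0.98, adjusted p = 0.0108, limma). Omission of any 1 mouse left *Masp2* past the threshold (13 of 13 fits), with differences of -1.07 to -0.87, as did 8 of 9 other settings (highest adjusted p = 0.0597, limma). Between the days it was also called, at -0.93 (adjusted p = 0.0376, limma), and there it passed in 5 of 13 such fits and under 5 of 9 other settings. That call ended without control replicate 1 or 4, without day 1 replicate 1, 2 or 3 and without day 5 replicate 1, 2 or 3 (highest adjusted p = 0.102, limma), with no filter on low TPM, with only the compared groups, with the replicate block and, at the highest adjusted p of 0.271, with the tubule score as a covariate (-0.79, limma). At day 1 0 components were called by limma.

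The C1q chains, which start the classical pathway on bound antibody and are made by macrophages, remained low. Their summed TPM was 1.66 ± 0.25 in control mice, 2.39 ± 1.08 at day 1 and 3.27 ± 1.02 at day 5. The log2 fold changes at day 5 were 0.76 for *C1qc* (adjusted p = 0.172) and 0.68 for *C1qb* (adjusted p = 0.195), by limma, and neither passed. In both genes day 5 replicate 4 lay below the other day 5 libraries, at 0.31 TPM for *C1qc* and 0.531 TPM for *C1qb*.

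The genes most like *Clu* were sought among all tested genes by the root mean square difference of log2 values, each gene centred on its own mean over the 13 libraries. The closest was *Hmgb2*, a chromatin protein of dividing cells, at a difference of 0.215, followed by *Cntf*, a neurotrophic cytokine, at 0.257 and *Cenph*, a kinetochore gene, at 0.258, against a root mean square deviation of 0.708 for *Clu* itself. *Hmgb2* went from 19.3 ± 2.32 TPM in control mice to 21.4 ± 2.82 TPM at day 1 and 52.4 ± 7.97 TPM at day 5. *Cntf* went from 4.23 ± 0.453 TPM to 6.44 ± 0.842 TPM and 12.7 ± 3.55 TPM. *Cenph* rose from 0.277 ± 0.0939 TPM in control mice to 0.753 ± 0.236 TPM at day 1 and 2.22 ± 0.242 TPM at day 5. Its means in control mice and at day 1 lay under 1 TPM, where this log2 scale understates changes. The day 5 log2 fold change of *Cenph* was 1.35 when 1 was added to TPM in place of 0.5, and 2.68 when 0.1 was added. That of *Clu* lay between 1.58 and 1.64 over the alternatives. *Hmgb2*, *Cntf* and *Cenph* were chosen for their likeness over these libraries, so the shared rise is a description.

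**Figure D4:**
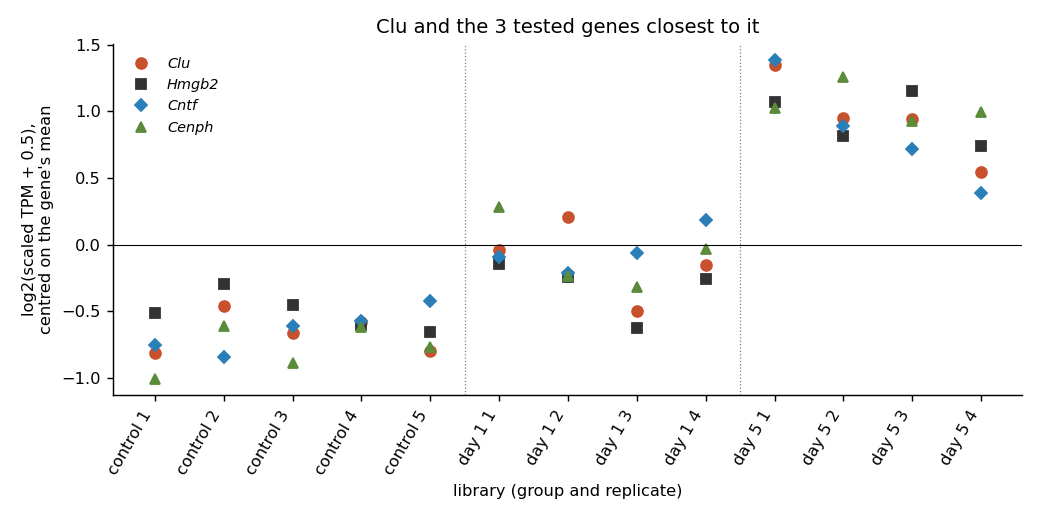
Log2(scaled TPM + 0.5) of *Clu* and its 3 closest genes in each of the 13 libraries, centred on each gene's mean (vertical axis, symbols by gene, libraries in order of group). All 4 genes are above 0 in the 4 day 5 libraries and below 0 in the 5 control libraries, and *Hmgb2* lies at a root mean square difference of 0.215 from *Clu*.

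In GRCm39, with gene bounds from the GENCODE M39 annotation, *Clu* lies on the plus strand of chromosome 14 from 66190200 to 66218999. *Serping1* lies on chromosome 2 from 84595705 to 84620873, *Cd59a* on chromosome 2 from 103926132 to 103947029 and *Cd55* on chromosome 1 from 130366469 to 130390926. *Vtn* is on chromosome 11 from 78388717 to 78393156, *C3ar1* on chromosome 6 from 122823393 to 122833122 and *C5ar1* on chromosome 7 from 15980668 to 15993465. Each value counts all transcripts of a gene together, so exons and isoforms were not resolved.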

How the data were processed

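Glomerular RNA of 13 mice was sequenced, 1 library per mouse, and the authors deposited TPM values per gene symbol. Per the submitters' processing notes and the methods, reads were checked with FastQC 0.11.9, trimmed with Trimmomatic 0.39 and quantified with Kallisto 0.46.2 against GRCm39 with Ensembl transcripts. How transcripts were summed to symbols is not given in the sources used here. The authors tested counts with DESeq2, and counts were not used here.

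Libraries were aligned by the median ratio of TPM to the geometric mean (15772 genes, factors 0.954 to 1.04), and log2(scaled TPM + 0.5) was taken, a scale that understates changes of low genes. Genes reaching 1 TPM in 4 or more libraries entered limma 3.58.1 under R 4.3.3 (all 3 groups, mean-variance trend, Benjamini-Hochberg adjustment per contrast). The limma step alone was tested on simulated log2 values with normal noise and planted shifts. That simulation did not test the scaling, the filter, the value added to TPM or tubular differences between mice. Both contrasts against control share the control mice. Members and lists were chosen with earlier results of these data known. Named besides the members were called genes of the other complement lists, filled to 4 per list by the lowest adjusted p at day 5, and the 3 genes closest to a called member. Cell markers were named for context, and 1 podocyte marker is not reported here. Paralogs were compared over protein-coding GENCODE M39 transcripts. Alternatives covered scaling, pseudocounts of 0.1 and 1, filters, the trend, the groups fitted, a replicate block, a tubule score and leaving out each library.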

Additional observations from a re-analysis of the deposited data

Results flagged for a closer look

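*Clu* differed between the 2 MN groups, with a log2 fold change of 1.07 at day 5 against day 1 in the direct test of the difference (adjusted p = 0.00278, limma), and all 4 day 5 libraries lay above all 4 day 1 libraries.

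A sample stood apart in 2 of 27 groups of values tested, both of genes that did not pass the filter. Chance sets a sample apart in about 1 of 20 groups of smoothly varying values. That rate cannot be applied to values listed at 0. *C3ar1* in control replicate 5 measured 0.368 TPM against 0.0962 to 0.145 TPM in the other control mice. *Vtn* in day 5 replicate 1 measured 0.211 TPM, and the other 3 day 5 libraries were listed at 0, so any value above 0 was set apart.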

How the results depend on the processing

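*Clu* was called as higher at day 5 and between the days under all 10 alternatives and in all 13 fits that each left out 1 library, and at day 1 in none. Over the 10 alternatives its day 5 log2 fold change lay between 1.58 and 1.64. The number of regulators called was 1 at day 5, 1 between the days and 0 at day 1 throughout, leaving out each library included. Estimates near 0 changed sign. *Serping1* at day 1 became -0.0167 with TPM not scaled further. With the replicate block, *Cd59a* at day 1 became 0.0269 and *Cd55* at day 5 became 0.0884. With the proximal tubule score as a covariate, *Cr1l* at day 1 became 0.042 and *Cd59a* between the days became 0.0998. The same covariate gave larger shifts without a change of sign or a call. It moved *Cd55* from -0.13 to -0.37 at day 1 and from 0.12 to 0.35 between the days. *Cd59a* at day 1 moved from -0.05 to -0.27. Leaving out 1 library gave ranges that crossed 0 for *Cd55* at day 5 (-0.11 to 0.0884), *Cd59a* at day 1 (-0.18 to 0.0269), *Serping1* at day 1 (-0.0257 to 0.0715) and *Cd46* between the days (-0.16 to 0.11).

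The number of genes called at day 1 was 13, and it was 6 with no filter on low TPM, 7 without the trend, 2 with only the compared groups, 149 with the replicate block, 0 with the tubule score (limma, 1165 genes at an unadjusted p under 0.05), and 3 (without day 1 replicate 1) to 217 (without control replicate 5) when 1 library was left out. At day 5 it was 460, and 358 to 472 when 1 library was left out. Between the days it was 259, and it was 153 when each library had to reach 1 TPM, 414 with only the compared groups, 162 with the tubule score and 184 to 435 when 1 library was left out, the highest without control replicate 5. Control replicate 5 had the highest proximal tubule score of the 13 libraries, at 0.782 against -0.922 to -0.178 in the other control mice. The causes of these shifts in the number called were not tested. Replicate numbers label different mice and did not pair them, since the deviations of same-numbered libraries correlated between -0.0562 and 0.0913 over 12 pairs. The replicate block has no partner for control replicate 5, which therefore drops out of that fit. The block left *Masp2* at day 5 at -0.87 (adjusted p = 0.0597, limma) and put *Cd59b* at 0.58 (adjusted p = 0.0117, limma). *Cd59b* was also called without control replicate 5 (adjusted p = 0.0236, limma). TPM keep no read depth, so what depth limits for *Vtn*, *C3ar1* and *C5ar1* is unknown.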
